A study of Homo sapiens with 9 samples.

Results

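The enzymes described here make and turn over phosphoinositides, the phosphorylated forms of the membrane lipid phosphatidylinositol. The set was built around CDS1, which was chosen by its high values in Hec50 cells that received a mimic of miR-200c, and 9 other genes were added for their place in the same pathway. All probe sets of the array whose only gene symbol is 1 of these 10 genes were taken, which gave 25 of the 54675 probe sets, or 10 of 19775 genes: 4 for CDS1, 5 for CDS2, 3 each for PI4KB, PIP5K1A and PIP4K2A, 2 each for PIP5K1B and PLCG1, and 1 each for CDIPT, PI4KA and PIP5K1C. Its 4 probe sets are therefore described with no test in any comparison. The other 9 genes, with 21 probe sets, were also picked with earlier results of these arrays known.

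Hec50 is an established line of aggressive human endometrial cancer. Affymetrix arrays held RNA of cells labelled mock (3 arrays), of cells given a scrambled negative control RNA (3 arrays) and of cells given a miR-200c mimic (3 arrays). Cells were exposed to either RNA for 48 hours at 60 nM, while the labels do not say how mock cells were handled. All arrays come from 1 cell line. Nothing in the labels says that replicates were cultured apart, so a p-value reflects the spread of these arrays alone, which may be technical, and fewer cells with an RNA cannot be told apart from less RNA per cell. The study restored miR-200c to this line. The deposited log2 values have had the median of every probe set, taken across all 9 arrays, set to 0, so every value below is a difference from that median and not a level, and no probe set's level is set against another's.

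Phosphoinositide synthesis starts from phosphatidic acid. CDS1 and CDS2 are the CDP-diacylglycerol synthases of the endoplasmic reticulum, which turn phosphatidic acid into CDP-diacylglycerol, and CDIPT joins that intermediate to inositol to give phosphatidylinositol. PI4KA at the plasma membrane and PI4KB at the Golgi add a first phosphate, the PIP5K1 kinases a further one to give phosphatidylinositol bisphosphate, and PIP4K2A makes the same lipid from another monophosphate. PLCG1, a phospholipase C switched on by growth factor receptors, cuts the bisphosphate into diacylglycerol and inositol trisphosphate, and diacylglycerol kinases return the former to phosphatidic acid. PLCG1 has been described as a target of the miR-200 family in other cells. The family acts through its seed, the stretch of the microRNA that pairs with target RNAs. The mature human sequence of the RNA that the mimic stands for is shown because it is the agent of the study, with the seed (bases 2 to 8) in capitals, from RefSeq on GRCh38.p14. The labels do not give the sequence of the mimic itself.
miR-200c-3p: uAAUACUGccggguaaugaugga

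Level classes recovered from the rounding of the stored numbers place a probe set's median at 8 or more on the log2 scale, from 4 to 8, or below 4. The epithelial markers EPCAM, KRT8, KRT18 and KRT7 and the Mullerian marker PAX8 had probe sets at 8 or more. So did the mesenchymal markers VIM, FN1 and CDH2 and the fibroblast marker COL1A1. The epithelial markers CDH1 and KRT19 and the Mullerian marker WFDC2 reached 4 to 8 at most, and SOX17, another Mullerian marker, lay below 4. Of the other markers, PTPRC of leukocytes, CDH5 of endothelium and LUM of fibroblasts lay below 4. CD3E and CD14 of leukocytes, PECAM1 and VWF of endothelium and DCN of fibroblasts reached 4 to 8 at most. Summed over 3 leukocyte markers, of 4 listed, the values were -0.37 to -0.25 in mock, 0.0 to 0.33 in scrambled and -0.06 to 0.35 in mimic arrays. Summed over 6 epithelial markers, the centred values ran from 4.63 to 5.77 with the mimic, from -0.52 to -0.02 with the scrambled control and from -0.37 to -0.24 in mock arrays. CDH1 (log2 change 3.26 against the scrambled control) and EPCAM (1.06) made up most of that sum, and KRT7 and KRT19 did not pass. The sum of 3 mesenchymal markers was -1.51 to -1.24 with the mimic, 0.02 to 0.03 with the scrambled control and 0.51 to 0.65 in mock arrays. FN1 (log2 change -1.09 against the scrambled control) made up most of that difference. VIM was at -0.23, and CDH2 (-0.09) did not pass. The centred 3' minus 5' value of the ACTB control probe sets, which bears on RNA integrity and labelling, was -0.18 ± 0.03 (SD, n = 3) for mock, 0.10 ± 0.04 for scrambled and 0.02 ± 0.08 for mimic, and that of GAPDH was 0.027, 0.007 and -0.015. The part of these in the results below was not tested.

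CDS1 was high with the mimic on 3 of its 4 probe sets. On 205709_s_at, its probe set at a level of 8 or more, the log2 values were 1.65, 1.57 and 1.63 in mimic arrays, 0.0, -0.02 and -0.01 in scrambled arrays and -0.19, -0.16 and 0.0 in mock arrays. All 3 mimic arrays lay above all 6 controls. The mean was 3.08-fold higher than with the scrambled control (log2 change 1.62, SE 0.06) and 3.32-fold higher than in mock (1.73, SE 0.06).

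Probe set 226185_at of CDS1 gave 1.40, 1.35 and 1.31 in mimic arrays, -0.07, 0.0 and 0.02 in scrambled arrays and -0.51, -0.30 and -0.24 in mock arrays. Its log2 change was 1.37 (SE 0.07) against the scrambled control and 1.70 (SE 0.07) against mock, and every scrambled array also lay above every mock array. Probe set 226187_at gave 0.66, 1.02 and 1.01 in mimic arrays, 0.0, 0.04 and -0.07 in scrambled arrays and -0.21, -0.24 and -0.22 in mock arrays. Mimic replicate 1 was the lowest of the 3 mimic arrays there, and the log2 change was 0.91 (SE 0.09) against the scrambled control and 1.12 (SE 0.09) against mock. Scrambled arrays were again above mock arrays without overlap, with a log2 change of 0.215 for 226187_at and of 0.33 for 226185_at, against 0.11 for 205709_s_at, on which they overlapped.

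The remaining CDS1 probe set, 222063_s_at, lay below 4 and its groups overlapped, with 0.21, -0.06 and 0.03 in mimic arrays and a log2 change of 0.10 (SE 0.07) against either control. Quantile normalization gave log2 changes of 1.21, 0.93 and 0.66 against the scrambled control for the 3 responding probe sets. Without it their log2 changes were 1.62, 1.37 and 0.91, which is 1.87-fold to 3.08-fold.

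**Figure D1:**
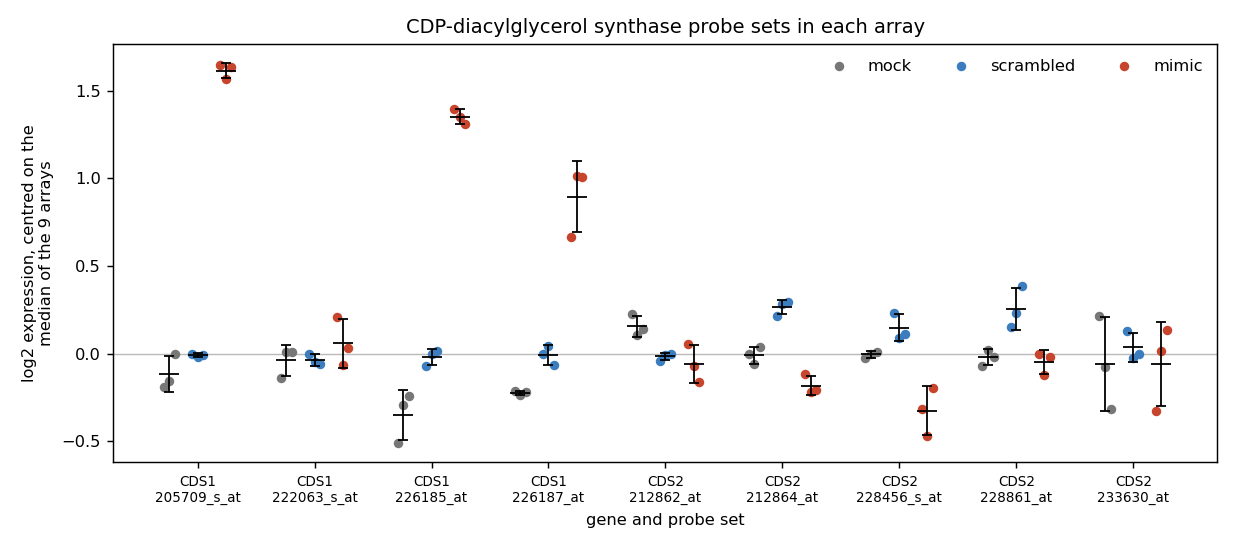
Centred log2 expression (vertical axis) of the 4 CDS1 and 5 CDS2 probe sets (horizontal axis) in mock, scrambled and mimic arrays. Points are arrays, black bars the mean ± SD of 3. The mimic arrays of CDS1 sit between 0.66 and 1.65 on 3 probe sets, while those of CDS2 run from -0.47 to 0.13 over its 5.

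By the rule of smallest root mean square difference over the 9 arrays, the genes whose values were most like those of CDS1 were MAL2, a protein of apical membrane traffic (0.09 on the log2 scale), the small GTPase gene ARL14 (0.11), ARHGDIB (0.14), ZBED2 (0.15) and the sialyltransferase gene ST6GALNAC5 (0.20). The median over 19774 genes was 0.94. Among the other members the nearest were PIP5K1B (0.91) and CDIPT (0.92), and the farthest were PIP4K2A (1.28) and PLCG1 (1.30). The values of CDS1 used for this measure were those of its probe set at a level of 8 or more. CDS1 was chosen by its high values with the mimic. A gene that changed little therefore lies far from it, and a gene that fell lies farther still. For that reason the distances of the members are not read against the median gene.

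The bases before the start of both synthase genes are shown with the E-box letters CACCTG marked, which the repressor ZEB1 binds. ZEB1 was lower with the mimic on 3 of its 4 probe sets. Whether ZEB1 has a part in the values of CDS1 was not tested. The log2 changes of ZEB1 against the scrambled control were -1.59 (210875_s_at), -1.57 (212764_at) and -0.65 (212758_s_at), with limma adjusted p of 1.38e-06, 6.56e-07 and 0.000882. The fourth, 239952_at, was at -0.17 (adjusted p = 0.385). Its relative ZEB2 was lower on 2 of 5 probe sets (-0.78 and -0.56, adjusted p = 0.014 and 0.000691), and 3 did not pass (0.155, 0.038 and 0.113). The windows are the 250 bases before the RefSeq start on the plus strand of GRCh38.p14, chr4:84582877-84583126 for CDS1 and chr20:5126758-5127007 for CDS2, read 5' to 3' with any E-box in capitals.
CDS1: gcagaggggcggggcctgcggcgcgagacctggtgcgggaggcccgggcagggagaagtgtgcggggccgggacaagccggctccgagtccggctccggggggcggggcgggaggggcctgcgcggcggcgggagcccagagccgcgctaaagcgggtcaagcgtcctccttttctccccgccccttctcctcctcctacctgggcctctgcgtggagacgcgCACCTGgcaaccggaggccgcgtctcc
CDS2: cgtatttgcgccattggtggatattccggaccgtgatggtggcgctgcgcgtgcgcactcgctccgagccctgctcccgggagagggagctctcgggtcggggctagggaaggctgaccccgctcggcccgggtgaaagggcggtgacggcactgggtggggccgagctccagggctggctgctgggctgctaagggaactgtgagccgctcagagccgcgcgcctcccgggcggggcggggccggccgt

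The letters CACCTG, or their complement CAGGTG, were searched on both strands. The CDS1 window holds 1 match, whose first base lies at -27 counted from the start, and the CDS2 window holds 0. PI4KA and PIP5K1B hold a match too, PIP5K1B in 1 of its 2 listed starts. So 3 of the 10 members have it, where a gene counts if any of its listed starts does. Counted by window and not by gene, 17.5% of 35116 windows of this length hold it, so these shares are not set against each other. With the mimic against the scrambled control PI4KA was at -0.23 and PIP5K1B at 0.08 and 0.015, and neither gene passed there. Whether the letters bear on any of these values was not tested. A match is a description of the letters and not a site of binding. No match says only that these letters are not in this window.

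Over the other 9 genes, 6 of 21 probe sets were lower in mimic than in scrambled arrays, 0 were higher and 15 did not pass (limma, Benjamini-Hochberg adjusted p under 0.05 over 41091 probe sets). Over all probe sets 5.25% were lower and 5.63% higher at that adjusted threshold, 10.9% in all. At an unadjusted p under 0.05 the 21 held 10 lower and 0 higher, counts with no share over all probe sets beside them. On 10 of the 21 every mimic array lay below every scrambled array and on 1 above (13.6% and 12.9% of all probe sets). The 6 belong to 3 genes, CDS2, PLCG1 and PIP4K2A, and the members were chosen with such results known, so their share is not read against that background. The median log2 change of the 21 was -0.16, against -0.01 over all probe sets. Of the 11 probe sets at a level of 8 or more 5 were called, and of the 10 under 8 there was 1, where 18.1% of all probe sets at 8 or more were called.

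CDS2, the paralogue of CDS1, was lower with the mimic on 3 of its 5 probe sets. Probe set 212864_at gave -0.12, -0.22 and -0.21 in mimic arrays, 0.22, 0.28 and 0.29 in scrambled arrays and 0.0, -0.06 and 0.04 in mock arrays. The 3 groups did not overlap, with scrambled arrays highest and mimic arrays lowest. It fell against the scrambled control (log2 change -0.45, SE 0.05, 3 arrays a group, limma adjusted p = 0.000373), and against mock the log2 change was -0.17 (SE 0.05, adjusted p = 0.0537).

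The CDS2 probe set 228456_s_at gave -0.31, -0.47 and -0.19 in mimic arrays, 0.23, 0.09 and 0.11 in scrambled arrays and -0.03, 0.0 and 0.01 in mock arrays. It fell against both controls, by 0.47 (SE 0.07, limma adjusted p = 0.00173) and by 0.32 (SE 0.07, adjusted p = 0.0129). On 228861_at the values were 0.0, -0.12 and -0.02 in mimic arrays and 0.15, 0.23 and 0.39 in scrambled arrays, a log2 change of -0.30 (SE 0.07, adjusted p = 0.0163), while mock arrays at -0.07, 0.02 and -0.02 overlapped those of the mimic (-0.03, adjusted p = 0.858). The call of 228861_at ended without scrambled replicate 3 (-0.24, adjusted p = 0.0539) and without mimic replicate 2 (-0.26, adjusted p = 0.0629); over all 14 alternatives it lay between 0.015 and 0.0629.

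Scrambled and mock arrays also differed for CDS2. Scrambled arrays were higher for 212864_at (log2 change 0.27, SE 0.05, limma adjusted p = 0.018) and 228861_at (0.28, SE 0.07, adjusted p = 0.0424). For 228456_s_at the groups did not overlap but the test was not passed (0.15, adjusted p = 0.256). The other CDS2 probe sets went other ways. On 212862_at mock arrays were highest at 0.22, 0.11 and 0.14, scrambled arrays lay at -0.04, -0.01 and 0.0 and mimic arrays at 0.05, -0.07 and -0.16, which gave -0.05 against the scrambled control (adjusted p = 0.734) and -0.22 against mock (adjusted p = 0.0432). On 233630_at mock arrays ran from -0.32 to 0.22 and mimic arrays from -0.33 to 0.13, and no comparison passed (lowest adjusted p = 0.744). What differs between the transcripts these probe sets read is not known here.

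The call of 212862_at against mock ended in 10 of 15 alternatives, with adjusted p from 0.0096 to 0.148. Leaving out any array other than mimic replicate 1 gave an adjusted p over 0.05, the highest being 0.148 without mimic replicate 3 (log2 change -0.16) and the next 0.142 without mock replicate 1 (-0.18). The scrambled against mock call of 212864_at ended without mock replicate 1 (0.28, adjusted p = 0.0554), mock replicate 2 (0.25, 0.0761), scrambled replicate 2 (0.26, 0.0536) or scrambled replicate 3 (0.26, 0.0629), and that of 228861_at in 9 of 14 alternatives, with the highest adjusted p (0.129) without mock replicate 1.

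PLCG1 fell with the mimic against both controls. On 202789_at the values were -0.48, -0.70 and -0.70 in mimic arrays, 0.004, 0.0 and -0.05 in scrambled arrays and 0.03, 0.003 and 0.002 in mock arrays. The 6 control arrays lay between -0.05 and 0.03, and all mimic arrays lay below them. The mean was 1.53-fold lower than with the scrambled control (log2 change -0.61, SE 0.06, 3 arrays a group, limma adjusted p = 0.000146) and 1.56-fold lower than in mock (-0.64, SE 0.06, adjusted p = 0.000104).

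The other PLCG1 probe set, 216551_x_at, read a smaller difference. It gave -0.09, -0.22 and -0.34 in mimic arrays, -0.04, 0.07 and 0.0 in scrambled arrays and 0.01, 0.14 and 0.02 in mock arrays. Mimic arrays lay below all controls, with a log2 change of -0.22 against the scrambled control (SE 0.07, limma adjusted p = 0.0682) and of -0.27 against mock (SE 0.07, adjusted p = 0.0245). The call against mock ended without mock replicate 2 (-0.23, adjusted p = 0.0969), mimic replicate 2 (-0.27, 0.0668) or mimic replicate 3 (-0.21, 0.0887), and without mimic replicate 1 the comparison with the scrambled control passed (-0.29, 0.028).

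PIP4K2A, the kinase that makes the bisphosphate by the minor route, also fell. Its probe set 229713_at gave -0.59, -0.70 and -0.69 in mimic arrays, -0.05, 0.01 and 0.03 in scrambled arrays and 0.0, 0.02 and 0.17 in mock arrays, which is 1.58-fold lower than with the scrambled control (log2 change -0.66, SE 0.06, limma adjusted p = 7.2e-05) and 1.65-fold lower than in mock (-0.72, SE 0.06, adjusted p = 3.8e-05). Probe set 212829_at gave -0.40, -0.63 and -0.53 in mimic arrays, 0.03, 0.02 and 0.06 in scrambled arrays and 0.03, -0.01 and 0.0 in mock arrays. Mimic and control arrays did not overlap on either. The log2 change of 212829_at was -0.56 (SE 0.06, adjusted p = 0.000198) and -0.53 (SE 0.06, adjusted p = 0.000278) against the 2 controls.

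The PIP4K2A probe set 205570_at, at a level from 4 to 8, held -0.02, -0.16 and -0.11 in mimic arrays, 0.12, 0.0 and 0.06 in scrambled arrays and -0.01, 0.18 and 0.20 in mock arrays. Mimic arrays were lowest but the differences did not pass (-0.16 and -0.22, limma adjusted p = 0.192 and 0.0575). Without mock replicate 1 the comparison with mock passed (-0.29, adjusted p = 0.0204). For both PLCG1 and PIP4K2A no probe set passed between scrambled and mock arrays, with log2 changes from -0.07 to 0.03.

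**Figure D2:**
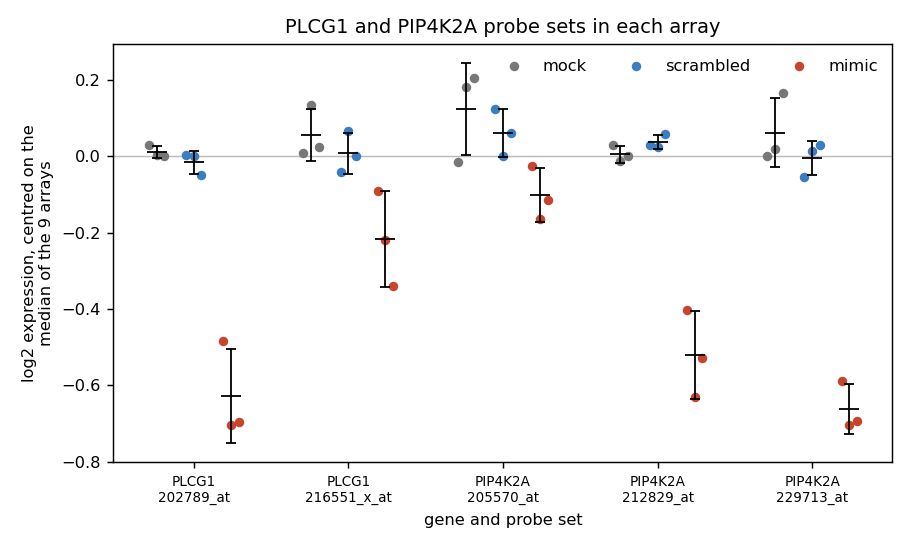
Centred log2 expression (vertical axis) of the 2 PLCG1 and 3 PIP4K2A probe sets (horizontal axis) in mock, scrambled and mimic arrays, with points for arrays and black bars for the mean ± SD of 3. On 202789_at, 212829_at and 229713_at the mimic arrays sit between -0.70 and -0.40, below all control arrays.

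CDIPT, the phosphatidylinositol synthase, was read by 1 probe set at a level of 8 or more. It held 0.0, 0.02 and 0.06 in mimic arrays, -0.09, -0.02 and -0.02 in scrambled arrays and -0.05, 0.07 and 0.09 in mock arrays. Mimic arrays lay just above scrambled arrays and within the mock arrays, and no comparison passed (log2 change 0.07, SE 0.05, limma adjusted p = 0.477 against the scrambled control, and -0.005, adjusted p = 0.97 against mock).

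Of the 4-kinases, PI4KA fell against mock. Its values were -0.19, -0.16 and -0.28 in mimic arrays, 0.0, 0.09 and -0.04 in scrambled arrays and 0.21, 0.21 and 0.03 in mock arrays. Mimic arrays were below all others, by 0.36 against mock (log2 change -0.36, SE 0.07, limma adjusted p = 0.00424), and the log2 change against the scrambled control was -0.23 (SE 0.07, adjusted p = 0.0534). The latter passed with the replicate number as a block (adjusted p = 0.033) and without mock replicate 3, which enters only through the shared spread (0.0341); over all 15 alternatives it lay between 0.0126 and 0.167.

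The 3 probe sets of PI4KB gave log2 changes from -0.22 to -0.08 against the scrambled control, and none passed (lowest limma adjusted p = 0.111). Mimic replicate 2 was the lowest of the 9 arrays on all 3, at -0.20 (206138_s_at), -0.28 (206139_at) and -0.22 (210417_s_at). Against mock 210417_s_at fell by 0.21 (SE 0.06, adjusted p = 0.0332). That call ended without any 1 of the mock arrays (adjusted p = 0.0989, 0.0869 and 0.0649), without mimic replicate 2 (log2 change -0.16, 0.102) and without mimic replicate 3 (-0.23, 0.066).

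The PIP5K1 kinases, which make most of the bisphosphate, gave no call in any comparison. The 3 probe sets of PIP5K1A varied within groups, and in the same arrays. Mock replicate 3 was high on all (0.23, 0.42 and 0.28), mimic replicate 1 as well (0.16, 0.21 and 0.26), and mimic replicate 3 was the lowest of the 9 arrays on all (-0.25, -0.24 and -0.31). The SE of its changes was 0.12 to 0.13, against a median of 0.0698 over all probe sets.

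PIP5K1B had log2 changes of 0.08 and 0.015 with the mimic against the scrambled control (limma adjusted p = 0.747 and 0.921) and of 0.27 and 0.10 against mock (0.155 and 0.32). Both its probe sets were lowest in mock replicate 2 (-0.37 and -0.13) and highest in mimic replicate 3 (0.26 and 0.12). PIP5K1C gave -0.05, -0.36 and -0.15 in mimic arrays, 0.0, 0.06 and -0.12 in scrambled arrays and 0.09, 0.04 and 0.04 in mock arrays. Its log2 change was -0.16 against the scrambled control (SE 0.08, adjusted p = 0.247) and -0.24 against mock (SE 0.08, adjusted p = 0.0675), and the latter passed without mimic replicate 1 (-0.31, 0.0291).

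**Figure D3:**
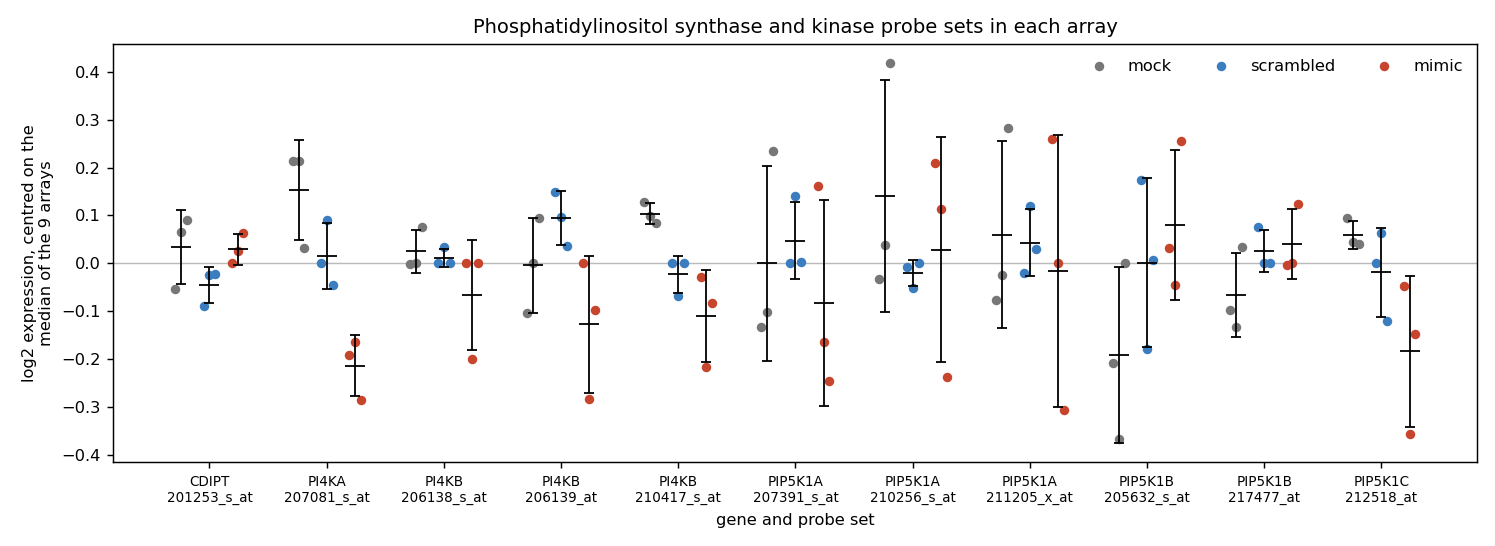
Centred log2 expression (vertical axis) of the probe sets of CDIPT, PI4KA, PI4KB and the PIP5K1 genes (horizontal axis) in mock, scrambled and mimic arrays, with points for arrays and black bars for the mean ± SD of 3. PI4KA mimic arrays sit below all others, and the PIP5K1A bars span most of the axis because mock replicate 3 is high and mimic replicate 3 low.

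Against mock, 8 of the 21 probe sets were lower, 0 higher and 13 not passed by limma (8.45% of all probe sets were lower and 6.25% higher, 14.7% in all). At an unadjusted p under 0.05 there were 11 lower and 1 higher, again with no share over all probe sets beside them. These 8 belong to CDS2, PI4KA, PI4KB, PLCG1 and PIP4K2A, and 7 of them are among the 11 at a level of 8 or more (24.5% of all probe sets there). Mimic arrays lay below all mock arrays on 11 and above on 0 (16.2% and 14.7% of all). The count was 5 without mock replicate 2, without mimic replicate 2 or without mimic replicate 3. The mimic arrays are shared with the comparison against the scrambled control. Between scrambled and mock arrays 2 probe sets, both of CDS2, were higher, 0 were lower and 19 did not pass. Over all probe sets 1.82% were higher and 3.92% lower, 5.74% in all and 10.5% at a level of 8 or more. At an unadjusted p under 0.05 the 21 held 2 higher and 1 lower, with no share over all probe sets beside them. Groups did not overlap on 3 higher and 2 lower (12.7% and 14.1% of all). The count of 2 was 0 without mock replicate 1, mock replicate 2, scrambled replicate 2 or scrambled replicate 3, and 1 without mock replicate 3, mimic replicate 1 or mimic replicate 3.

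**Figure D4:**
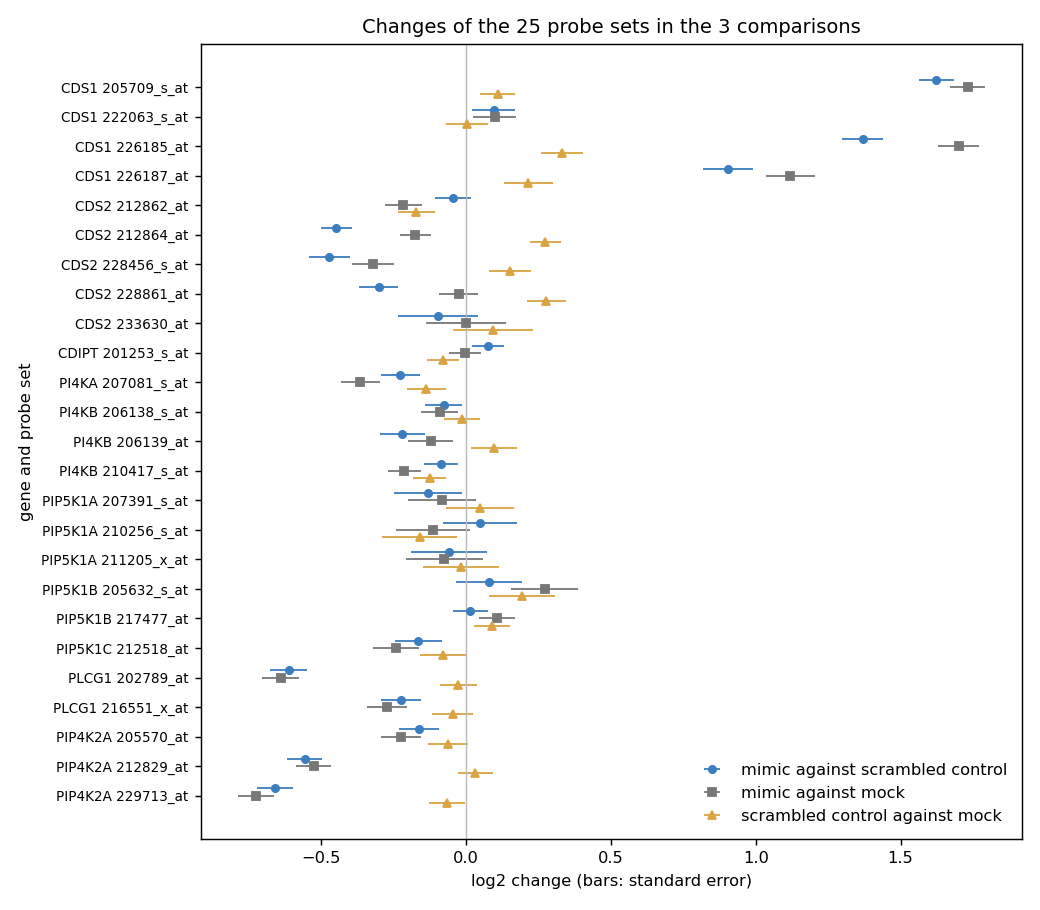
Log2 changes (horizontal axis, bars are standard errors) of the 25 probe sets (vertical axis) in the 3 comparisons. CDS1 reaches 1.73 on the right, PLCG1 and PIP4K2A reach -0.72 on the left, and for PLCG1 and PIP4K2A the scrambled against mock values lie near 0 while those of CDS2 lie above it on 4 probe sets and at -0.17 on 212862_at.

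The rest of the pathway was taken from a list of 124 genes in 9 roles, of which 115 were measured by a probe set with 1 symbol. A gene's value here is the mean of its probe sets in its highest level class, tested over 19775 genes. With the mimic against the scrambled control 11 of the 115 were higher, 14 lower and 90 not passed, so 21.7% were called, where 14.7% of all genes were (7.66% higher and 7.01% lower). The median log2 change of the list was -0.02 and that of all genes -0.01. The list was chosen with earlier results known and was not matched to all genes by level. Its share is therefore not read against that of all genes, here or in the other comparisons. Counts for single roles below rest on few genes and carry the same limit. Without scrambled replicate 1 or mimic replicate 3 there were 7 higher, and without scrambled replicate 2 there were 7 lower. Against mock 11 were higher, 27 lower and 77 not passed (18.8% of all genes called, 8.44% higher and 10.3% lower), with 7 higher without mock replicate 1. For scrambled against mock 4 were higher, 9 lower and 102 not passed (8.16% of all genes called, 2.84% higher and 5.32% lower). The 4 came to 1 without mock replicate 1 or 2 or scrambled replicate 1 or 3, and to 2 without scrambled replicate 2 or mimic replicate 3.

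Phosphatases held the furthest changes among these 115 genes against the scrambled control, with 2 higher, 4 lower and 16 not passed of 22 (14.7% of all genes were called). SYNJ1, a synaptojanin that strips phosphates from phosphoinositides at endocytic sites, gave -0.40, -0.31 and -0.34 in mimic arrays, 0.22, 0.13 and 0.18 in scrambled arrays and -0.10, 0.0 and 0.01 in mock arrays. It fell against both controls (log2 change -0.53 and -0.32, SE 0.05, limma adjusted p = 4.45e-05 and 0.00111), and the scrambled arrays were the highest, as on 3 of the 5 CDS2 probe sets (0.21 against mock, adjusted p = 0.0299, a call that ended in 6 of 16 alternatives, with 0.104 without mock replicate 1 and 0.0685, 0.0919 and 0.0848 without mock replicate 2, scrambled replicate 1 and scrambled replicate 3). With the mean of all 3 of its probe sets the changes with the mimic were -0.30 and -0.22, and that of scrambled against mock was 0.085 (adjusted p = 0.467). INPP4A, a 4-phosphatase of the products of PI 3-kinase, gave -0.43, -0.53 and -0.60 in mimic arrays, 0.0, 0.04 and -0.003 in scrambled arrays and 0.02, 0.08 and 0.21 in mock arrays.

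INPP4A fell by 0.53 against the scrambled control (SE 0.06, limma adjusted p = 0.000151) and by 0.62 against mock (adjusted p = 5.05e-05), and with the mean of its 6 probe sets the changes were -0.24 and -0.36. INPP5E, a 5-phosphatase of the primary cilium, fell by 0.26 and 0.37. SYNJ2, the relative of SYNJ1, rose by 0.24 against the scrambled control (adjusted p = 0.00987), a call lost when all 7 of its probe sets were averaged (0.15, adjusted p = 0.0946). Its mimic and mock arrays overlapped (0.07, limma adjusted p = 0.434). INPP4B, the relative of INPP4A, was chosen for mention after its values were seen. It rose by 0.16 against the scrambled control (limma adjusted p = 0.0278, a call that ended without scrambled replicate 1 or 2 or any 1 mimic array, up to 0.0869) and by 0.27 against mock (adjusted p = 0.00139). With its 4 probe sets averaged the changes were larger, at 0.45 (adjusted p = 0.000198) and 0.50 (adjusted p = 9.77e-05). OCRL, the 5-phosphatase mutated in Lowe syndrome, was at -0.14 against the scrambled control (adjusted p = 0.056) and fell by 0.19 against mock (adjusted p = 0.0103, and 0.0508 without mock replicate 2).

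Kinases and scaffolds beside the members held 1 higher, 3 lower and 9 not passed of 13 against the scrambled control (14.7% of all genes were called). PIKFYVE, which makes the bisphosphate of late endosomes, fell by 0.38 (SE 0.06, limma adjusted p = 0.000938), though the mean of its 3 probe sets gave -0.15 (0.102). Its fall against mock was 0.25 (adjusted p = 0.0106), and that mean gave -0.08 there (0.351). TTC7B, a subunit of the complex that holds PI4KA at the plasma membrane, fell by 0.31 (SE 0.08, adjusted p = 0.0194) against the scrambled control and by 0.39 (0.00409) against mock, and the former call ended without scrambled replicate 2 (-0.23, 0.0692), mimic replicate 2 (-0.28, 0.0661) or mimic replicate 3 (-0.27, 0.0738). PIP4K2B, the close relative of PIP4K2A, gave -0.17, -0.28 and -0.22 in mimic arrays, 0.0, 0.0 and -0.06 in scrambled arrays and 0.25, 0.34 and 0.33 in mock arrays.

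PIP4K2B was lower with either small RNA than in mock, by 0.53 with the mimic (limma adjusted p = 3.46e-05) and by 0.33 with the scrambled control (adjusted p = 0.00344). Averaged over its 4 probe sets these changes were -0.26 (adjusted p = 0.0168) and -0.19 (adjusted p = 0.0994, so the latter call ended). Its difference between mimic and scrambled control was -0.20 (adjusted p = 0.0169, and 0.0591 without scrambled replicate 1, 0.0568 without scrambled replicate 2, 0.0578 without mimic replicate 2, and 0.574 for a change of -0.07 with the mean of 4 probe sets). VAC14, the scaffold of PIKFYVE, fell by 0.44 against mock (adjusted p = 0.000839) and was at -0.21 against the scrambled control (adjusted p = 0.0507), which passed without scrambled replicate 3 (0.0226) or mimic replicate 1 (0.0256).

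PI 3-kinases held 1 higher, 3 lower and 8 not passed of 12 against the scrambled control (14.7% of all genes were called). PIK3CG, a catalytic subunit best known from leukocytes, gave -0.16, -0.15 and -0.13 in mimic arrays, 0.01, 0.01 and 0.0 in scrambled arrays and 0.36, 0.36 and 0.33 in mock arrays. It was lower than in mock with the mimic (-0.50, limma adjusted p = 1.47e-05) and with the scrambled control (-0.34, adjusted p = 0.000954). Its change against the scrambled control was -0.15 (adjusted p = 0.0223), and leaving out any 1 of the scrambled or mimic arrays gave an adjusted p from 0.0506 to 0.0639. Of the leukocyte markers, PTPRC lay below 4 on all 5 of its probe sets, while CD3E and CD14 reached 4 to 8. CD3E was higher than in mock with the scrambled control (0.28, limma adjusted p = 0.0167) and with the mimic (0.20, adjusted p = 0.0405). PTPRC and CD14 passed in no comparison. Where the PIK3CG signal came from was not tested. The class II kinase genes PIK3C2A and PIK3C2B were at 0.20 (adjusted p = 0.0203) and -0.20 (adjusted p = 0.0304). Against mock PIK3C2A was at 0.13 (limma adjusted p = 0.0936), and at 0.145 with the mean of its 9 probe sets (0.0373).

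Neither class II call held throughout. That of PIK3C2A ended without scrambled replicate 1, scrambled replicate 2 or mimic replicate 3 (limma adjusted p = 0.0602, 0.0772 and 0.08). That of PIK3C2B ended in 8 of 16 alternatives, among them without scrambled replicate 1 (0.11), scrambled replicate 2 (0.0851), mimic replicate 1 (0.0968) or mimic replicate 2 (0.0734). PIK3CB, the catalytic subunit of the beta enzyme, rose with both RNAs against mock (0.27 and 0.29, adjusted p = 0.00315 and 0.00666) and was at -0.02 between them. Averaged over its 2 probe sets the rise with the scrambled control did not pass (0.25, adjusted p = 0.074).

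Other phospholipases C held 2 higher, 1 lower and 8 not passed of 11 against the scrambled control (14.7% of all genes were called). PLCG2, the relative of PLCG1, rose by 0.28 (SE 0.06, limma adjusted p = 0.00872), with 1 of its 4 probe sets called. Its rise against mock was 0.225 (adjusted p = 0.0239), a call that ended in 5 of 15 alternatives. PLCB4 rose by 0.25 against the scrambled control and by 0.38 against mock (adjusted p = 0.0118 and 0.000872), and PLCB1 fell by 0.27 against the scrambled control (adjusted p = 0.00854). Against mock PLCB1 was at -0.18 (limma adjusted p = 0.0548). PLCD3 was at -0.16 (adjusted p = 0.067, and 0.0383 without scrambled replicate 3) and fell by 0.21 against mock (adjusted p = 0.0203), which ended without any 1 mock array or mimic replicate 1 or 2 (0.0542 to 0.0582).

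Genes upstream of CDS1 supply or remove phosphatidic acid. Of 17 acyltransferases, lipid phosphatases and phospholipases D, 1 was higher, 1 lower and 15 did not pass against the scrambled control (14.7% of all genes were called). PLPP1 was higher (0.21, limma adjusted p = 0.0149) and PLPP3 lower (-0.23, adjusted p = 0.0188), and both dephosphorylate phosphatidic acid. The PLPP1 call ended without scrambled replicate 1 (0.0607) or 3 (0.0543), and that of PLPP3 without scrambled replicate 2 (0.0574) or mimic replicate 3 (0.0709). Against mock PLPP3 was at -0.11 (limma adjusted p = 0.24), while PLPP1 rose by 0.27 (0.003). GPAT3, an acyltransferase of the first step, rose against mock (0.30, adjusted p = 0.00233) and was at 0.13 against the scrambled control (adjusted p = 0.141).

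Among 10 diacylglycerol kinases 1 was higher, 1 lower and 8 did not pass against the scrambled control (14.7% of all genes were called). DGKH fell by 0.32 (SE 0.05, limma adjusted p = 0.00184) and DGKE rose by 0.26 (adjusted p = 0.00642). When all probe sets of each gene were averaged neither passed (-0.15 and 0.14, adjusted p = 0.144 and 0.088). DGKE was lower with the scrambled control than in mock (-0.24, adjusted p = 0.0225, and 0.0619 to 0.0673 without any 1 mock array or scrambled replicate 2 or 3). Averaged over its 5 probe sets that change was -0.08 (adjusted p = 0.383). Its mimic and mock arrays overlapped (0.03). DGKD fell by 0.22 against mock (adjusted p = 0.0102) and was at -0.10 against the scrambled control.

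Of 3 other genes that draw on CDP-diacylglycerol, 1 was higher and 2 did not pass against the scrambled control (14.7% of all genes were called). PTPMT1, a phosphatase of cardiolipin synthesis in mitochondria, rose by 0.28 (limma adjusted p = 0.00331). Against mock PTPMT1 was at 0.16 (limma adjusted p = 0.0512), and at 0.22 with the mean of its 2 probe sets (0.0127). Among 8 carriers of phosphatidylinositol 1 was higher, 0 lower and 7 not passed against the scrambled control (14.7% of all genes were called). SEC14L1 rose by 0.17 (limma adjusted p = 0.0426). That call ended without any 1 of the scrambled or mimic arrays (0.0678 to 0.129) and without mock replicate 2 (0.0673). PITPNA and PITPNM1, which carry phosphatidylinositol between membranes, were lower than in mock with the mimic (-0.26 and -0.34, adjusted p = 0.00265 and 0.00117) and with the scrambled control (-0.28 and -0.34, adjusted p = 0.00684 and 0.00496), with 0.01 and -0.01 between mimic and scrambled control (adjusted p = 0.904 and 0.958).

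Of 19 genes of inositol and inositol phosphates 1 was higher, 1 lower and 17 not passed against the scrambled control (14.7% of all genes were called). INPP5A, which inactivates inositol trisphosphate, rose by 0.25 (limma adjusted p = 0.00558). Its rise against mock was 0.17 (adjusted p = 0.034, and 0.191 with the mean of its 2 probe sets), a call that ended in 8 of 16 alternatives. IMPA2, an inositol monophosphatase, fell by 0.26 against the scrambled control and by 0.33 against mock (adjusted p = 0.00965 and 0.0017). ITPK1, an inositol phosphate kinase, fell by 0.27 against mock (adjusted p = 0.00262, and 0.0791 with the mean of 3 probe sets). Against mock this role held 2 higher, 6 lower and 11 not passed (8.44% of all genes were higher and 10.3% lower, 18.8% in all).

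**Figure D5:**
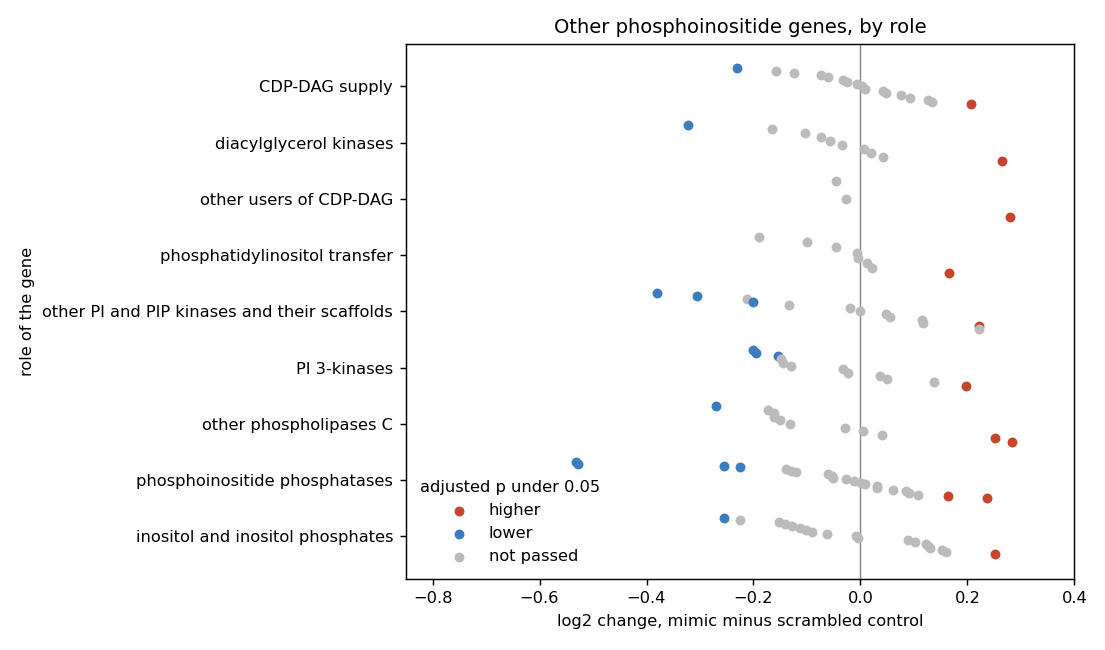
Log2 change of the mimic against the scrambled control (horizontal axis) for 115 other phosphoinositide genes by role (vertical axis), with 1 point per gene and colour for genes called higher, called lower or not passed. Phosphatases reach furthest to the left, at -0.53, and no gene lies beyond 0.28 on the right when a gene is the mean of its probe sets in the highest level class.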

How the data were processed

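The authors deposited 9 arrays of 54675 probe sets as log2 values, with the median of a probe set subtracted (it is 0 for 100.0% of them). How probes were summarised and normalised, and the base of the logarithm, are not given in the sources used here, and base 2 was taken. Level classes were recovered from the step of single precision numbers (97.7% of 6000 simulated probe sets placed rightly). Signal over background is not known. Names came from the platform's annotation, and 41091 probe sets with 1 symbol were used (1801 had several, 11721 none, and 62 controls were left out).

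Group means over all 9 arrays were fitted in R 4.3.3 by lmFit and eBayes of limma 3.58.1, without covariates and with two-sided tests, with Benjamini-Hochberg adjustment over all 41091 probe sets or 19775 genes. Standard errors are those of log2 changes. On data simulated for mimic against scrambled control over 41091 probe sets, 12% of changes of 0.25, 66% of 0.5 and 96.7% of 1 on the log2 scale were recovered. Far fewer probe sets were changed in the simulation than were called in the data. The adjusted threshold is stricter there, so these shares are not the power of the tests above. Members and lists were chosen with earlier results of these data known. Named genes are all member probe sets, up to 3 called genes of each role with the smallest p against the scrambled control and up to 2 against mock, OCRL, with CDH1, ZEB1 and ZEB2 as context, and the 5 genes nearest to CDS1. Replicate numbers did not pair the arrays (correlations of deviations between same-numbered arrays -0.146 to 0.112).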

Additional observations from a re-analysis of the deposited data

How the results depend on the processing

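Alternatives were quantile normalization, a level of 8 or more, the replicate number as a block, fits of the 2 groups alone, array weights, robust variance, each array left out and, for genes, the mean of all probe sets. No called change of a member or named gene turned its direction. Leaving out arrays gave 5 to 7 lower member probe sets against the scrambled control (0 higher in each), 5 to 10 lower against mock (0 higher) and 0 to 2 higher with the scrambled control against mock (0 lower). For the 115 pathway genes it gave 7 to 11 higher and 7 to 14 lower against the scrambled control, 7 to 11 higher and 18 to 24 lower against mock, and 1 to 4 higher and 6 to 10 lower for scrambled against mock. With array weights 1 member probe set was higher against mock, PIP5K1B 205632_s_at. For scrambled against mock, member counts were 1 higher and 1 lower at a level of 8 or more, and 1 higher with the 2 groups alone. There, pathway genes called higher were 8 at a level of 8 or more, 7 with array weights and 1 with the mean of all probe sets, against 4. With the replicate block, for whose numbers no pairing was seen, scrambled against mock gave 1 higher member probe set and 2 higher pathway genes. The number of arrays limits the precision, and signal over background is not known. The cause of these differences was not tested.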

Other observations

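Probe set 213408_s_at carries the symbols of PI4KA and of the pseudogenes PI4KAP1 and PI4KAP2, so it was left out above. It held -0.05, -0.16 and -0.17 in mimic arrays, 0.04, 0.06 and 0.0 in scrambled arrays and 0.18, 0.19 and 0.0 in mock arrays. As on the probe set of PI4KA alone, mimic arrays were lowest and mock replicate 3 was the lowest of the mock arrays. Which of the genes gave this signal cannot be told apart.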
